A study of Homo sapiens with 6 samples.

Results

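The 1226 peak regions described here lay, by their midpoints, in 5 windows of 1 Mb of the human genome (build hg19), out of 593594 regions in the 4 deposited lists. Of these, 612 came from the high-glucose and 542 from the normal-glucose 5-hydroxymethylcytosine (5hmC) list, and 38 and 34 from the high- and normal-glucose 5-methylcytosine (5mC) lists. The windows were chr1:37000001-38000000, chr1:34000001-35000000, chr17:32000001-33000000, chr1:18000001-19000000 and chr1:176000001-177000000, called windows A to E in that order. They were chosen by their 5hmC cover, the percent of a window that lies inside 5hmC peak regions, because its excess in high over normal glucose was larger in them than in the other windows among 2875 on chromosomes 1 to 22 and X. The 5hmC differences between the glucose levels in these windows are therefore what chose them, and they are given as a description, with no test. No annotation on hg19 was used here, so regions are given by position only.

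The libraries came from A2058, a human melanoma cell line made to overexpress wild-type TET2, and all groups carried that transgene. Cells were grown for 7 days in high glucose or in normal glucose. At each glucose level there was 1 library of 5hmC by hMeDIP-seq, 1 of 5mC by MeDIP-seq and 1 of input DNA, where hMeDIP and MeDIP enrich DNA fragments with an antibody (Active Motif) against the modified base before sequencing. The labels give no glucose concentration and do not say whether the line was 1 clone. With 1 library per mark and glucose level, no difference below has a replicate check. Shares of regions pooled over the 5 windows are set beside the same share over the whole lists, except where stated.

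TET2 is a dioxygenase that oxidises 5mC, the methyl mark set on cytosine by DNA methyltransferases, to 5hmC. 5hmC can be oxidised further and replaced by unmodified cytosine, so it is known both as a step in DNA demethylation and as a stable mark of gene bodies and enhancers. In melanoma the global 5hmC level is known to be low compared with melanocytes and naevi. An immunoprecipitation peak reports how many fragments were recovered around a site, which depends on the density of modified cytosines as well as on the share of molecules that carry them.

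The depth behind the lists was worked out from their fold and p columns. For an assumed genome of 2700 Mb, the 5hmC libraries held 28.0 M reads in high and 27.5 M in normal glucose, and the shallower 5mC libraries 6.14 M and 5.11 M. The smallest expected count, read as the genome-wide background, was 3.03 fragments for 5hmC in high glucose and 2.64 in normal glucose, a ratio of 1.15, while the reads stood in a ratio of 1.02. The shortest 5hmC peaks were 292 bp in high and 259 bp in normal glucose, 33 bp apart, so widths carry a built-in offset between the lists.

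In high glucose, 5hmC peaks covered 9.51% of window A, 7.73% of window B, 5.50% of window C, 7.84% of window D and 4.58% of window E, against 8.09%, 6.34%, 4.17%, 6.54% and 3.36% of the same windows in normal glucose. The differences were 1.42, 1.39, 1.33, 1.30 and 1.21 percentage points. As ratios, high over normal, they were 1.18, 1.22, 1.32, 1.20 and 1.36, so the sparser windows C and E differed more in proportion than windows A, B and D. Just outside the choice, the window ranked 6 was the 1 Mb directly before window C, with 7.35% in high and 6.22% in normal glucose and a difference of 1.13 percentage points. Over the 2875 windows the median difference was -0.0237 percentage points, and the lowest was -9.23. All 5 windows lay above the median window in 5hmC cover, which was 2.91% in high and 2.91% in normal glucose.

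The 5mC cover, which the choice did not use, was low in all 5 windows. It was 0.574%, 0%, 0.236%, 0.979% and 0.328% of windows A to E in high glucose, and 0.328%, 0.0325%, 0.260%, 0.716% and 0.355% in normal glucose. The median over all windows was 1.01% in high and 0.901% in normal glucose, and each of the 5 windows lay below it at both levels. Taking the mean of both levels, 2752 of the 2875 windows had more 5mC than window B, and 1534 had more than window D, the window with most 5mC among the 5. At the depth of the 5mC libraries, a stretch with no 5mC region is one where none was detectable, not one shown to lack 5mC.

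**Figure D1:**
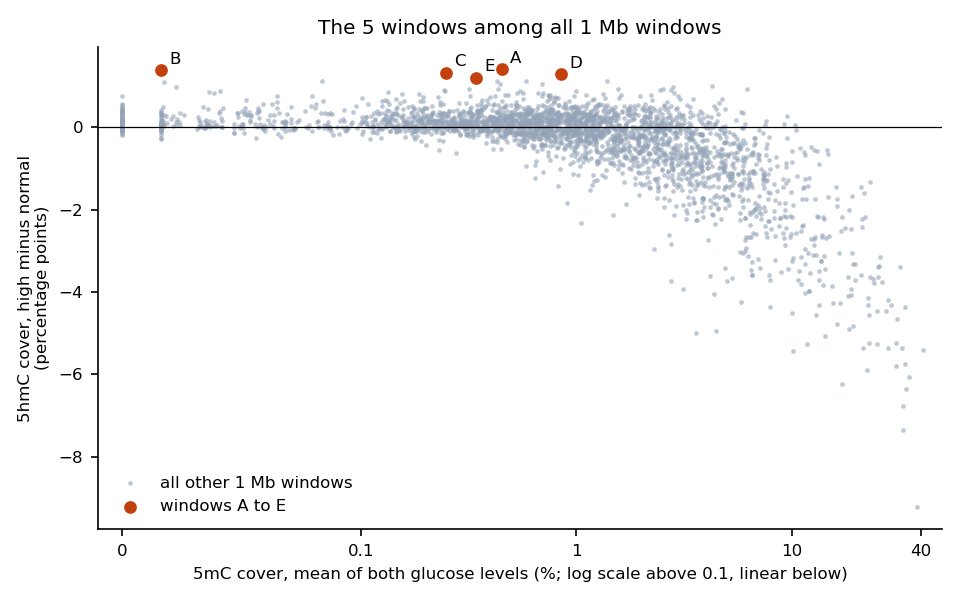
Difference in 5hmC cover (y axis, high minus normal glucose, in percentage points) against 5mC cover (x axis, mean of both glucose levels, percent, log scale above 0.1 and linear below) for each of 2875 windows of 1 Mb, with windows A to E as large labelled points. The 5 windows form the upper edge by choice and sit left of most others on the 5mC axis, with window B furthest left of the 5.

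Of the 10 neighbouring stretches of 1 Mb, 1 on either side of each window, 5 had a 5hmC difference above 0 and 5 below it. Directly before window A the difference was -1.07 percentage points, and directly after it 0.321. The stretch before window A had 6.51% 5mC cover in high and 5.37% in normal glucose. Directly before window B it was -3.65, with 11.1% 5hmC cover in high and 14.7% in normal glucose and 5mC cover of 5.78% and 4.84%; directly after it was -0.072. Window D lay between a stretch at -2.19 and a stretch at -3.58 percentage points, whose 5mC cover was 8.91% and 6.70% in high and 8.68% and 6.42% in normal glucose. All 4 neighbours of windows C and E had differences above 0, with 1.13 before and 0.0704 after window C and 0.548 before and 0.184 after window E. The stretch after window C had more 5mC than the window, 2.12% in high and 2.33% in normal glucose.

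Each window was split into 20 bins of 50 kb. High glucose had the higher 5hmC cover in 82 of the 100 bins and the lower in 17, and 1 bin held no 5hmC region at either level. Of the 99 bins with any 5hmC this was 82.8%, against 50.4% of all such bins on chromosomes 1 to 22 and X. Per window the count was 14, 17, 19, 16 and 16 of 20 bins. The 3 leading bins of each window carried between 38.9% of its net length, in window C, and 50.3%, in window E. The median bin of the windows had 0.538 kb more 5hmC in high glucose, against 0.005 kb over all bins.

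Window A held the longest unbroken stretch of bins with more 5hmC in high glucose. It ran over 14 bins, chr1:37050001-37750000, with differences between 0.406 and 1.98 kb. Over the whole genome the 12647 such stretches had a median of 1 bin, 5 of them reached 14 bins or more, and the longest had 21. The leading bins of window A were chr1:37400001-37450000, with 4.68 kb in high and 2.70 kb in normal glucose, chr1:37450001-37500000, with 4.16 and 2.28 kb, and chr1:37100001-37150000, with 5.63 and 3.82 kb. After position 37750000 the sign turned: the last 5 bins were at -0.035, -0.025, -0.637, -1.62 and -1.05 kb. The lowest of these, chr1:37900001-37950000, had 8.73 kb in high and 10.4 kb in normal glucose and was the bin of window A with the most 5hmC at normal glucose.

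In window B the leading bin was chr1:34600001-34650000, with 7.12 kb of 5hmC in high and 4.51 kb in normal glucose. Next came chr1:34250001-34300000, with 7.88 and 6.17 kb, and chr1:34150001-34200000, with 4.23 and 2.59 kb. Its first 9 bins were all higher in high glucose, and its 3 lower bins were at -0.014, -0.439 and -0.345 kb, the lowest being chr1:34800001-34850000 with 1.17 kb in high and 1.61 kb in normal glucose.

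Window C had 19 of 20 bins higher in high glucose, the most of the 5 windows. Its last bin, chr17:32950001-33000000, had the largest difference of all 100 bins, with 5.02 kb in high and 2.06 kb in normal glucose. The next in window C were chr17:32250001-32300000, with 2.23 and 1.06 kb, and chr17:32000001-32050000, with 2.50 and 1.47 kb. The 1 lower bin was chr17:32400001-32450000, at 2.86 and 3.09 kb.

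The leading bins of window D were chr1:18350001-18400000, with 6.95 kb in high and 5.05 kb in normal glucose, chr1:18150001-18200000, with 5.16 and 3.48 kb, and chr1:18400001-18450000, with 5.42 and 3.80 kb. Its lowest bin was chr1:18600001-18650000, with 4.30 and 4.90 kb. In window E the leading bins were chr1:176500001-176550000, with 4.94 kb in high and 2.83 kb in normal glucose, chr1:176750001-176800000, with 3.75 and 1.71 kb, and chr1:176950001-177000000, with 5.62 and 3.68 kb. The first bin of window E was its lowest, with 1.67 kb in high and 2.39 kb in normal glucose. The longest unbroken stretches inside windows D and E had 7 and 5 bins. In window E, stretches of 5 bins lay on both sides of a bin with no 5hmC at either glucose level.

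**Figure D2:**
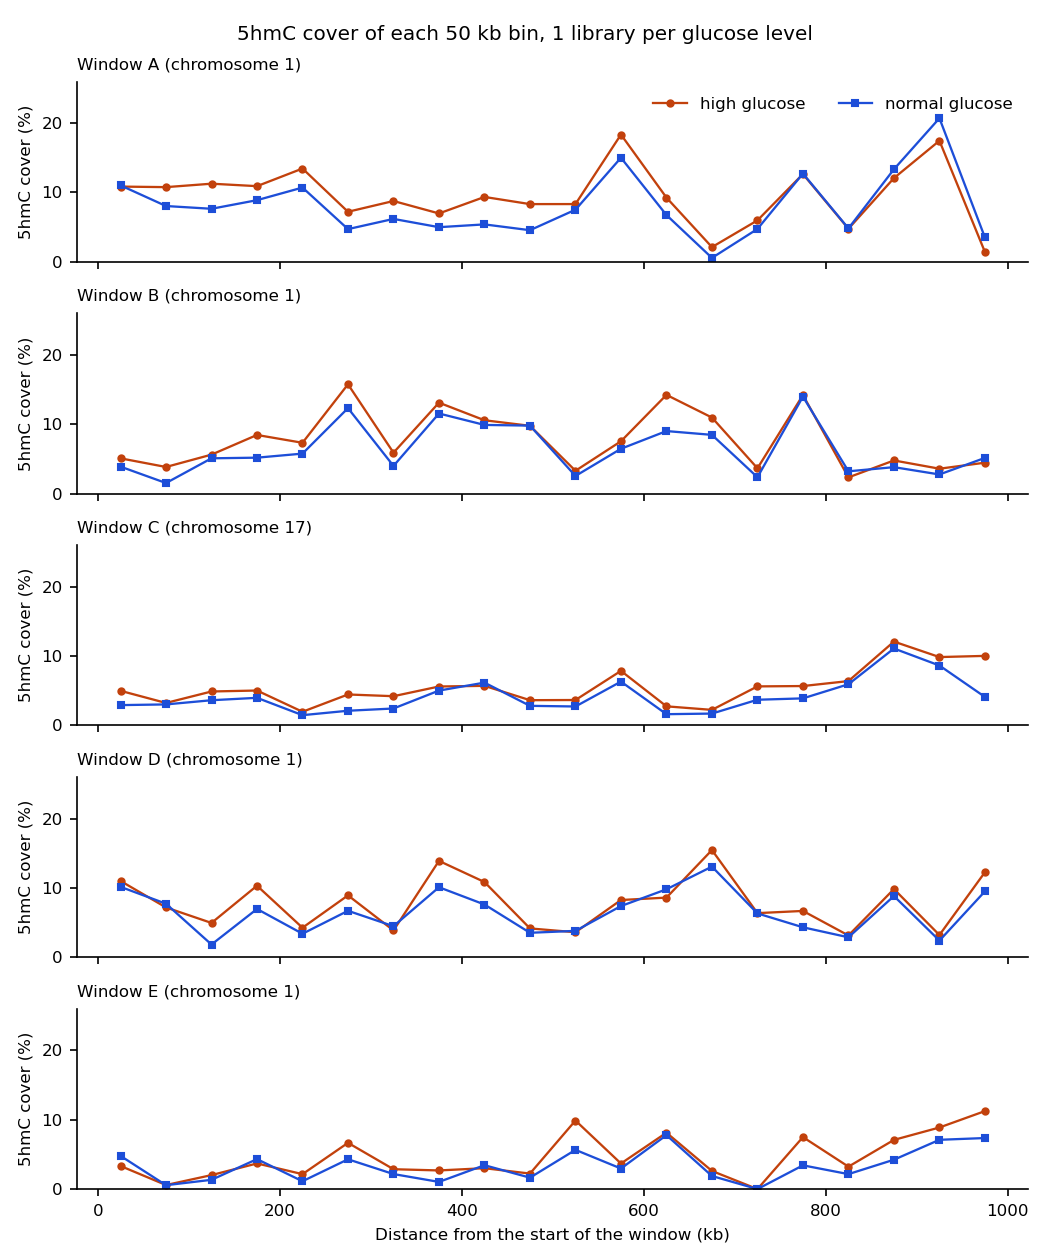
5hmC cover of each 50 kb bin (y axis, percent of the bin inside peak regions) against the distance from the start of the window (x axis, kb), with circles for high glucose and squares for normal glucose, 1 library each. High glucose lies above normal glucose in 82 of 100 bins and below it in the last 5 bins of window A.

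To see which peaks make up these differences, each 5hmC region was called shared if a region of the other 5hmC list overlapped it by at least 1 bp, and otherwise listed at 1 glucose level only. Of the 612 high-glucose regions, 163 had no normal-glucose partner, which is 26.6% (Wilson 95% interval 23.3 to 30.3), against 24.1% of the whole high-glucose list. Of the 542 normal-glucose regions, 91 had no high-glucose partner, 16.8% (13.9 to 20.2), against 31.2% of the whole normal-glucose list. These intervals, like those on fragments below, cover counting only, since PCR copies of 1 molecule cannot be told from separate molecules here. The share in high glucose thus stood near that of its whole list, and the share in normal glucose stood below that of its whole list.

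By window, 42, 34, 36, 30 and 21 regions were listed in high glucose only, and 21, 16, 23, 22 and 9 in normal glucose only. They measured 66338 bp in high and 29626 bp in normal glucose, a net gain of 36712 bp. That is 54.9% of the net difference of 66854 bp between all 612 and all 542 regions, with regions counted whole where they cross a window edge. The regions shared 1:1 gave 30138 bp, and the few overlaps of several regions gave 4 bp. The split differed between windows: regions without a partner gave 9336 bp of the net length in window A and 9073 bp in window B, against 4687 and 5046 bp from 1:1 pairs. Windows C and D had more from 1:1 pairs, with 6641 and 8606 bp, than from regions without a partner, with 6605 and 5270 bp. In window E the values were 6428 bp without a partner and 5158 bp in 1:1 pairs.

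**Figure D3:**
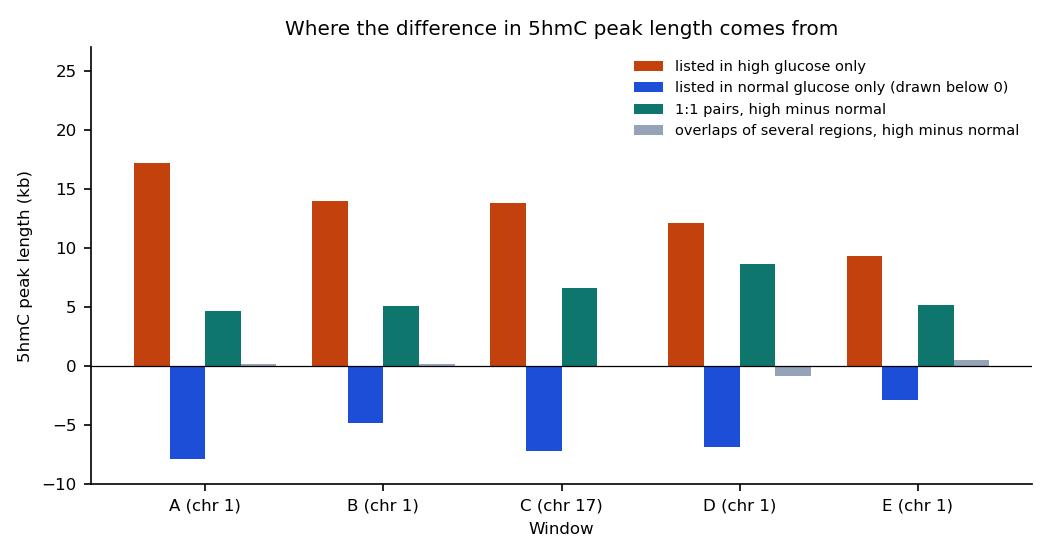
Length of 5hmC peak regions (y axis, kb) per window, for regions listed in high glucose only, regions listed in normal glucose only (drawn below 0), and the high-minus-normal difference of 1:1 pairs and of overlaps of several regions. Regions listed in high glucose only are longest in total in window A and shortest in window E, and the 1:1 pairs add most in window D.

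The added regions were mostly weak and short. Their median -log10 p, as the authors' list gives it, was 7.82, against 15.5 for the high-glucose regions with a partner, and their median width was 364 bp. The regions listed in normal glucose only had a median -log10 p of 7.48, against 12.6 for those with a partner, and a median width of 289 bp. Over the whole lists, regions without a partner had a median -log10 p of 7.25 in high and 6.31 in normal glucose. Their median widths there were 352 and 344 bp. Among high-glucose regions with a -log10 p under 10, 113 of 217 had no partner; from 10 to under 20 it was 47 of 246, and at 20 or more 3 of 149. In normal glucose the same bands held 74 of 231, 17 of 201 and 0 of 110. The share without a partner thus dropped with strength at both glucose levels, and in each band it was larger in high glucose within these windows. In the whole lists the weak band ran the other way, with 38.2% of high-glucose and 46.5% of normal-glucose regions without a partner. The upper bands there ran the same way as in the windows, with 14.2% in high and 11.8% in normal glucose from 10 to under 20, and 0.776% and 0.559% at 20 or more.

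Regions called strongest below are those with the highest -log10 p. The number of fragments at the summit, worked out for each peak from the authors' fold and p columns, is also given. Intervals on fragments are exact Poisson 95% intervals. The 3 strongest regions listed in high glucose only stood in windows B, C and D. In window B it was chr1:34750544-34750979, with 41 fragments (29.4 to 55.6) and 7.81-fold by the authors' fold, which uses the region's own expected count. The nearest normal-glucose region was 4854 bp away. In window C it was chr17:32695929-32696373, with 42 fragments (30.3 to 56.8) and 6.29-fold, 3609 bp from the nearest normal-glucose region. In window D it was chr1:18542564-18543003, with 39 fragments (27.7 to 53.3) and 6.67-fold, 385 bp from the nearest one.

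Windows A and E had no such region with a -log10 p of 20 or more. The strongest in window A was chr1:37449637-37450061, with 37 fragments (26.1 to 51.0), followed by chr1:37562601-37563009 with 32 and chr1:37550741-37551094 with 25 fragments. The strongest in window E was chr1:176542885-176543310, with 33 fragments (22.7 to 46.3), followed by chr1:176919765-176920227 with 31 and chr1:176956538-176956914 with 26. The second of these in window E was also the most isolated of the named regions, 14761 bp from any normal-glucose region. The remaining named regions were chr1:34630108-34630471 and chr1:34680930-34681274 in window B, with 29 fragments each, chr17:32920752-32921155 and chr17:32451854-32452287 in window C, with 38 and 29, and chr1:18122511-18122930 and chr1:18169277-18169641 in window D, with 31 and 26.

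On the other side, the strongest region listed in normal glucose only was chr1:34994962-34995291 in window B, with 30 fragments (20.2 to 42.8) and a -log10 p of 15.2. Those of windows A, C, D and E were chr1:37850019-37850294 with 20, chr17:32447335-32447679 with 26, chr1:18937720-18937978 with 24 and chr1:176637969-176638452 with 32 fragments. None of the named regions without a partner overlapped a 5mC region. The median distance of the added regions to the nearest normal-glucose region was 2656 bp, against 3521 bp over the whole list. Of the 163, 123 or 75.5% lay within 5 kb, against 59.5% of such regions in the whole list. For regions listed in normal glucose only, the median distance to the nearest high-glucose region was 2303 bp, against 2943 bp, and 68 of 91 or 74.7% lay within 5 kb, against 64.9%.

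Of the shared regions, 438 formed 1:1 pairs, in which 1 high-glucose region overlapped 1 normal-glucose region and no other. In 290 pairs the high-glucose region was the wider, in 145 the narrower, and in 3 the widths were equal. The wider share was 66.2% (61.7 to 70.5), against 57.0% of all 134949 pairs in the lists. By more than the 33 bp between the shortest peaks of the lists, 240 pairs were wider, which is 54.8%, against 46.2% of all pairs. The median gain was 45.5 bp, and 23 bp over all pairs. Per window the wider pairs numbered 64 of 112, 64 of 101, 50 of 68, 71 of 100 and 41 of 57, lowest in window A, at 57.1%, and highest in window C, at 73.5%. By more than 33 bp, the shares in windows A to E were 46.4%, 54.5%, 64.7%, 55.0% and 59.6%, so in window A fewer pairs than not were wider by more than the offset.

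The quartiles of the width difference, high minus normal glucose, were -26 and 120.5 bp. In 20 pairs the high-glucose region was wider by 500 bp or more, 4.57%, against 2.81% of all pairs. In 4 pairs it was narrower by that much, 0.913%, against 4.26% of all pairs. The widest regions in the windows were of similar size at both glucose levels, 1971 bp in high and 1922 bp in normal glucose, both in window B, and no region reached 2 kb. Regions of 1 kb or more numbered 70 in high glucose, 11.4% against 11.1% of the whole list, and 44 in normal glucose, 8.12% against 11.4%. Window E had 9 of them in high and 0 in normal glucose.

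The largest gain of all was in window A, where chr1:37234706-37235995 was 1290 bp wide in high glucose and its partner chr1:37235556-37235939 was 384 bp wide in normal glucose. The difference lay at the lower-coordinate end, by 850 bp, and the summits held 34 and 29 fragments in high and normal glucose, so this pair was wider without being much stronger. In window C, chr17:32182545-32184091 was 1547 bp wide with 58 fragments in high glucose, and chr17:32183339-32184007 was 669 bp wide with 27 fragments in normal glucose. That pair also had the largest gain in fragments among the pairs of window C. A second pair of window C, chr17:32936070-32937243 in high and chr17:32936838-32937149 in normal glucose, was 1174 and 312 bp wide with 37 and 21 fragments.

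In window D the high-glucose region chr1:18186049-18187878 was 1830 bp wide with 66 fragments, and its partner chr1:18186839-18187792 in normal glucose was 954 bp wide with 52 fragments. It was the strongest high-glucose 5hmC region of the windows by -log10 p, at 60.4. The other named pair of window D, chr1:18041262-18042322 in high and chr1:18041998-18042262 in normal glucose, was 1061 and 265 bp wide with 19 fragments in each, a case of width alone. In window E, chr1:176786405-176787708 in high glucose was 1304 bp wide with 49 fragments, against 433 bp and 38 fragments for chr1:176786962-176787394 in normal glucose. A further pair there, chr1:176250109-176251250 in high and chr1:176250790-176251241 in normal glucose, was 1142 and 452 bp wide, with 51 and 42 fragments.

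The named gains in window B were 737 and 491 bp. The region chr1:34612174-34613495 was 1322 bp wide with 28 fragments in high glucose, and chr1:34612821-34613405 was 585 bp wide with 18 fragments in normal glucose, with summits 988 bp apart. The pair chr1:34665363-34666329 in high and chr1:34665817-34666292 in normal glucose was 967 and 476 bp wide with 60 and 53 fragments. The remaining named pair of window A, chr1:37918813-37919853 in high and chr1:37919302-37919619 in normal glucose, was 1041 and 318 bp wide but had fewer fragments in high glucose, 20 against 23. It was also the only one of the 10 named wide pairs that overlapped a 5mC region. That 5mC region, chr1:37919851-37920175 with 10 fragments, was listed in normal glucose only. It met just the upper end of the high-glucose 5hmC region and did not reach the normal-glucose partner.

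Overlaps of several regions were rare and balanced in length. They took in 11 of 612 high-glucose regions, against 10334 of 191314 in the whole list. Of the normal-glucose regions they took in 13 of 542, against 9496 of 209999. In 5 places 1 high-glucose region spanned 2 normal-glucose regions, with 6782 bp in high and 5286 bp in normal glucose, and in 3 places 1 normal-glucose region was split into 2 in high glucose, with 2927 bp in high and 4419 bp in normal glucose. The joined regions included chr1:37896332-37897678 in window A, with 63 fragments in high and at most 41 in normal glucose. The split ones included chr1:37903453-37905228 in window A, whose 2 high-glucose parts measured 1120 bp against 1746 bp for the 1 region in normal glucose.

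Summit fragments were compared in the 438 pairs after division by the ratio of reads. In 324 pairs there were more in high glucose, 74.0% (69.7 to 77.9), against 67.7% of all pairs. The median ratio, high over normal, was 1.19, and 1.12 over all pairs. Scaled by the background instead of the reads, 256 pairs or 58.4% had more in high glucose, against 49.6% of all pairs, and the median ratios were 1.05 and 0.994. The direction of the whole list therefore rested on the scaling. The scalings differ only through the shortest peaks, 292 and 259 bp, because reads were worked out from the background and the shortest peak. In the 5 windows pooled, more than 1 in 2 pairs stayed above 1 either way. Scaled by background, the shares in windows A to E were 58.0%, 50.5%, 69.1%, 62.0% and 54.4%. The median ratio of window B was then 1.002. In 247 of the 438 pairs the authors' fold, which sets the fragments against the expected count of each library, was the larger in high glucose, which is 56.4%, against 51.8% of all pairs.

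A difference of at least 1.5 times in scaled fragments was seen upward in 57 pairs, 13.0%, against 11.2% of all pairs. It was seen downward in 3 pairs, 0.685%, against 2.20% of all pairs. Most pairs thus differed by less than that, and 336 of 438 had summits within 100 bp of each other, 76.7% against 73.0% of all pairs. Both wider and with more fragments in high glucose were 224 pairs, 51.1% against 42.3% of all pairs. Per window, pairs with more fragments numbered 87 of 112, 69 of 101, 53 of 68, 75 of 100 and 40 of 57, and window B had the lowest median ratio, 1.13, and window C the highest, 1.25.

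**Figure D4:**
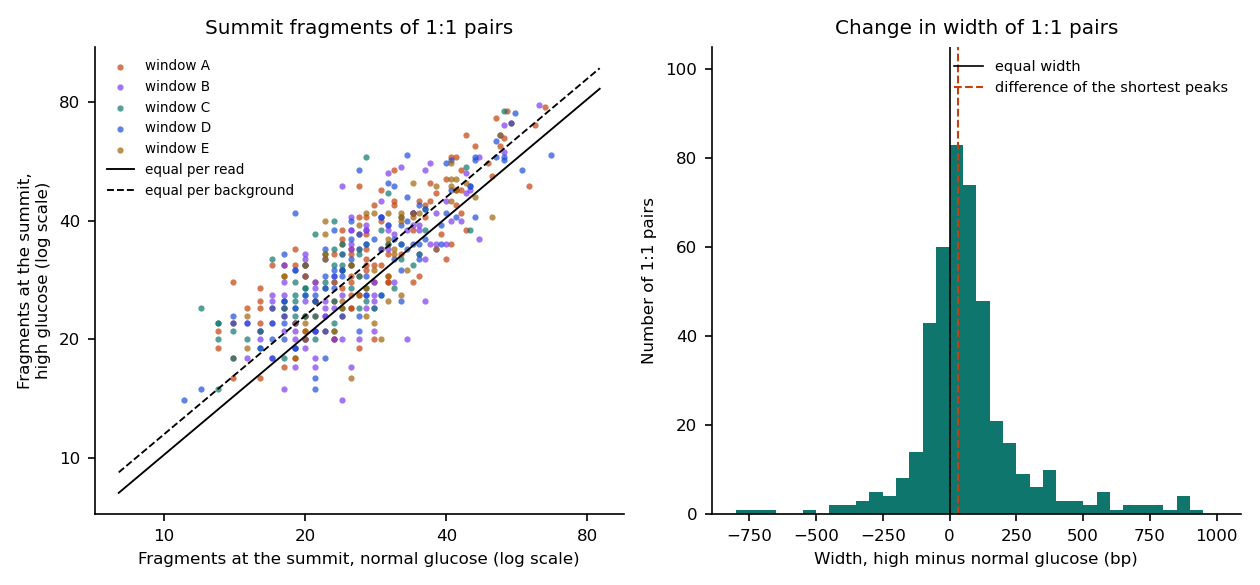
Left, fragments at the summit of each of 438 1:1 pairs in high glucose (y axis) against normal glucose (x axis), both on log scales and coloured by window, with lines for equal values per read (solid) and per background (dashed); 324 pairs lie above the solid and 256 above the dashed line. Right, number of pairs by width difference, high minus normal glucose, in steps of 50 bp; 290 lie above 0 and 240 beyond the dashed line at 33 bp.

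The pairs with the largest gains in scaled fragments included sites of greater, nearly equal and smaller width in high glucose. In window D, chr1:18961637-18962473 had 54 fragments (40.6 to 70.5) in high glucose and its partner 26 (16.98 to 38.1) in normal glucose, at nearly the same width, 837 and 795 bp. Also in window D, chr1:18667142-18667698 had 59 fragments (44.9 to 76.1) in high and 33 (22.7 to 46.3) in normal glucose. Before any scaling, the intervals of the first of these pairs did not overlap, while those of the second did. Both pairs were picked for their large gains, so the intervals are no test of a difference. In window A, chr1:37199816-37200618 had 49 in high and 26 in normal glucose, and chr1:37888622-37889535 had 54 and 31.

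In window B the leading gain in fragments came with a loss of width. The high-glucose region chr1:34592186-34592735 held 49 fragments over 550 bp, and the normal-glucose region chr1:34592268-34593483 held 24 over 1216 bp, with summits 850 bp apart. The next in window B, chr1:34155620-34156091, had 53 fragments in high and 30 in normal glucose at 472 and 475 bp. In window C the second pair by gain was chr17:32893080-32894337, with 76 fragments in high and 53 in normal glucose. Window E had the smallest named gains, chr1:176939594-176939996 with 40 in high and 22 in normal glucose and chr1:176819638-176820584 with 50 and 34. The 3 pairs with a lower value by at least 1.5 times, picked out after their values were seen, were chr1:34606420-34606936, with 14 fragments in high and 24 in normal glucose, chr1:34733291-34733582, with 20 and 33, and chr1:176107490-176107957, with 16 and 25.

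The 5mC regions of the windows were few, 38 in high and 34 in normal glucose. Of the 99 bins with 5hmC, 18 held any 5mC, which is 18.2%, against 59.2% of all such bins. Bins without 5mC had more 5hmC in high glucose in 71 of 81 cases, 87.7%, against 61.3% of all bins of that kind, and bins with 5mC in 11 of 18 cases, 61.1%, against 42.8%. Of the net 5hmC difference of 66.5 kb over the bins, 59.1 kb lay in bins without 5mC and 7.38 kb in bins with it.

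In windows B to E the bins with 5mC summed to 0.781, 3.74, 4.51 and 1.01 kb more 5hmC in high glucose. Only window A had less 5hmC there in high glucose. Its 10 high-glucose and 7 normal-glucose 5mC regions all lay in the last 2 bins, chr1:37900001-38000000, which had 3.50 and 2.24 kb of 5mC in high and 2.29 and 0.982 kb in normal glucose. The 5hmC differences of those bins, high minus normal glucose, were -1.62 and -1.05 kb and summed to -2.67 kb, while those of the 18 bins without 5mC summed to 16.9 kb. The strongest 5mC region of window A was chr1:37947067-37948387, with 48 fragments (35.4 to 63.6) in high glucose, against chr1:37947072-37948032 with 33 fragments (22.7 to 46.3) in normal glucose. A 5hmC pair covered the same place, chr1:37947027-37948503 with 32 fragments in high and chr1:37946898-37948562 with 40 in normal glucose. Next to it, the 5hmC pair at chr1:37940831-37942025 had 20 fragments in high and 28 in normal glucose, at a 5mC region with 33 fragments in high and 26 in normal glucose. At both places 5hmC had fewer and 5mC more fragments in high glucose, and the 5mC library of high glucose was also the deeper, by 1.20 times.

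**Figure D5:**
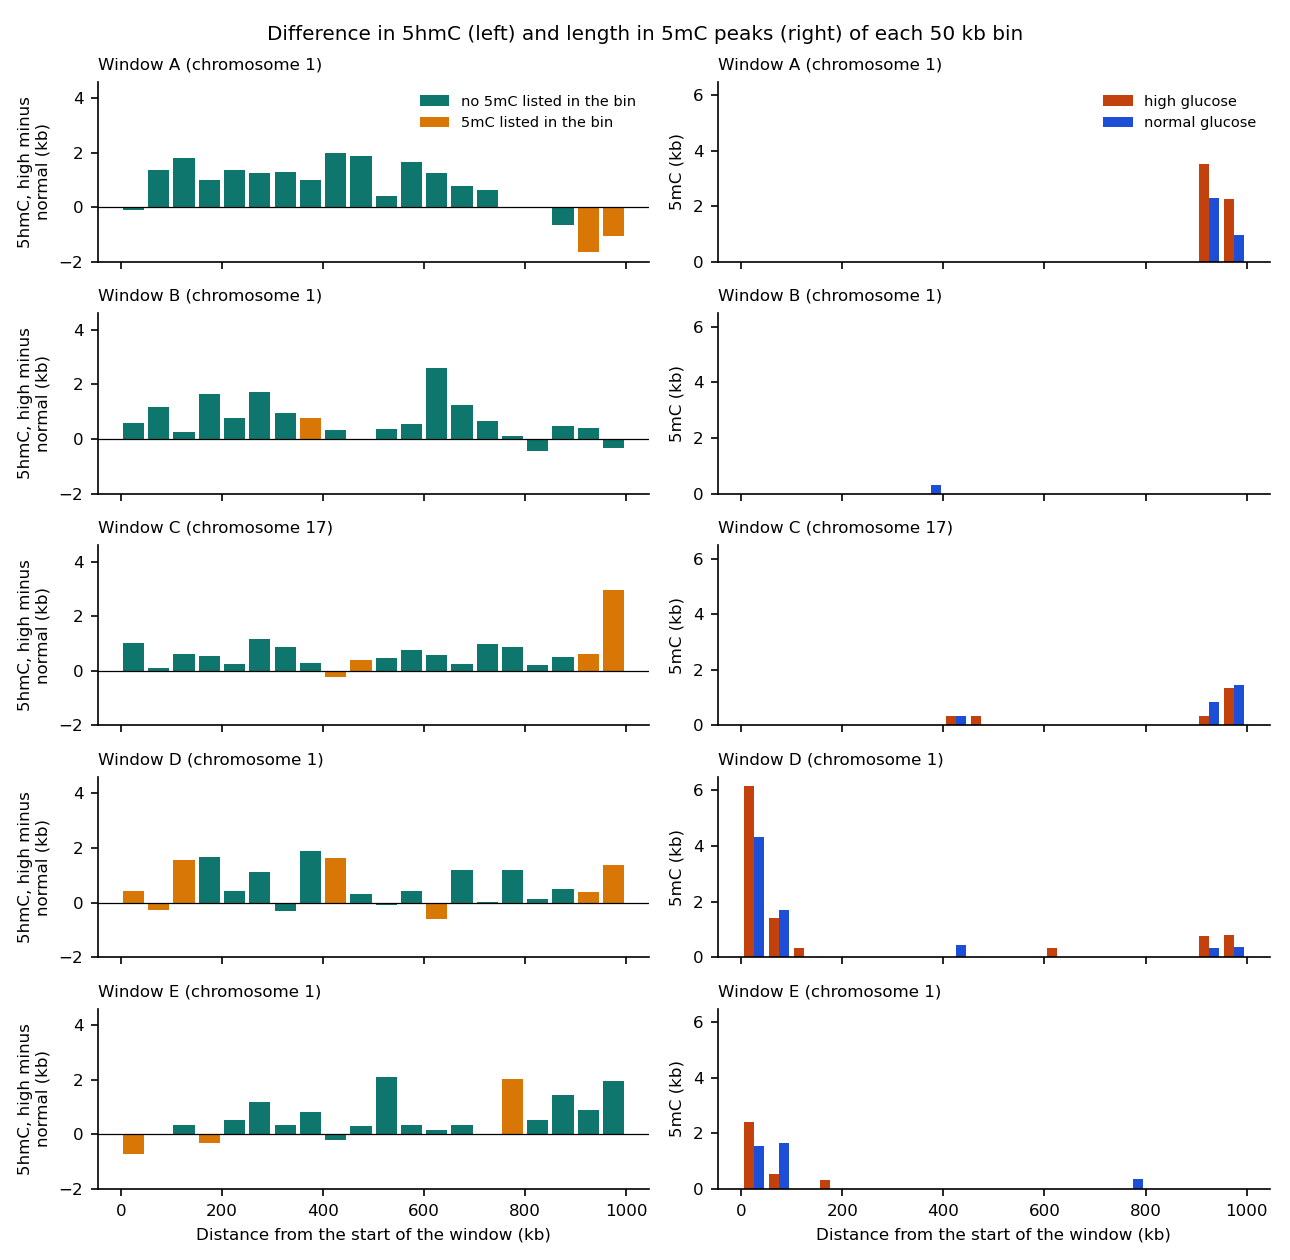
Left, difference in 5hmC length per 50 kb bin (y axis, high minus normal glucose, kb) against the distance from the start of the window (x axis, kb), coloured by whether the bin holds any 5mC region. Right, length in 5mC regions per bin (y axis, kb) at high and normal glucose. In window A the bins with 5mC are the last 2, at -1.62 and -1.05 kb, whereas in window C the last bin holds 5mC and has the largest difference, 2.96 kb.

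Window C did not follow window A. Its last bin held 1.35 kb of 5mC in high and 1.44 kb in normal glucose together with the largest 5hmC difference of all bins. Its strongest 5mC region was chr17:32953097-32953671, with 21 fragments (13.0 to 32.1) in high glucose, and chr17:32953011-32953732, with 14 (7.65 to 23.5), in normal glucose, and the 2 intervals overlapped. Neither was covered by a 5hmC region of either list. At chr17:32425875-32426993 a 5hmC region with 47 fragments in high and 30 in normal glucose overlapped a 5mC region of the normal-glucose list that had 6 fragments.

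Window D had the most 5mC, 16 regions in high and 13 in normal glucose. They measured 9785 bp in high and 7160 bp in normal glucose, and its first bin alone held 6.18 and 4.31 kb. The strongest 5mC region of the 5 windows was there, at chr1:18023310-18024023 with 59 fragments (44.9 to 76.1) in high and chr1:18023281-18023973 with 57 (43.2 to 73.9) in normal glucose, before any scaling by depth. Close by, the 5hmC region chr1:18026833-18028039 had 43 fragments in high and its partner 36 in normal glucose, and it reached into a pair of 5mC regions. Of these, chr1:18026046-18027097 had 38 fragments in high and 53 in normal glucose, and chr1:18027656-18028054 had 19 in high and 10 in normal glucose. At chr1:18001793-18003442 the fragments of 5hmC were 59 in high and 67 in normal glucose, and those of the overlapping 5mC region 46 and 34. At chr1:18093332-18094556 the fragments of 5hmC were 35 in high and 32 in normal glucose, and those of 5mC 28 and 23.

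Window E held 7 5mC regions in high and 8 in normal glucose, mostly in its first 2 bins. Its strongest was chr1:176026307-176027227, with 34 fragments (23.5 to 47.5) in high glucose, and chr1:176026286-176027115, with 25 (16.2 to 36.9), in normal glucose. In the first bin, 5mC measured 2.41 kb in high and 1.53 kb in normal glucose and 5hmC 1.67 and 2.39 kb; in the second, 5mC was the shorter in high glucose, 0.541 against 1.65 kb, and 5hmC 0.292 and 0.28 kb. Window B had no 5mC region in high glucose and 1 in normal glucose, chr1:34385984-34386308, with 6 fragments (2.20 to 13.1). A 5hmC pair overlapped it, with 21 fragments in high and 16 in normal glucose.

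5hmC and 5mC regions rarely met in the windows. Of the high-glucose 5hmC regions, 11 of 612 shared at least 1 bp with a 5mC region at either glucose level, 1.80% (1.01 to 3.19), against 19.9% of the whole list. Of the normal-glucose 5hmC regions, 13 of 542 did, 2.40% (1.41 to 4.06), against 21.1% of the whole list. Among the 163 regions listed in high glucose only there were 2, chr1:18925813-18926271 in window D, with 24 fragments, and chr17:32402576-32402958 in window C, with 27; that is 1.23%, against 10.4% of such regions in the whole list. Of the 91 listed in normal glucose only there were 5, which is 5.49%, against 17.7%. Of the 1:1 pairs, 9 met 5mC, and 5 of them had more scaled 5hmC fragments in high glucose, 55.6% against 61.1% of all pairs that met 5mC. Over the 5 windows, 5mC regions measured 21170 bp in high and 16911 bp in normal glucose, and 15 of 38 and 11 of 34 of them had no partner in the other 5mC list. These are 39.5% in high and 32.4% in normal glucose, against 28.3% and 21.5% of the whole 5mC lists. The difference in 5mC cover was 0.0852 percentage points, in the direction of the deeper library, and the part of depth in it was not tested.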

How the data were processed

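5hmC and 5mC were profiled by hMeDIP-seq and MeDIP-seq in 1 library per mark and glucose level; the 2 libraries of input DNA were not used here. Groups follow the titles, although the names of the peaks read Ctrl in high and Low in normal glucose. The build hg19 and the tools bedtools 2.17.0, SAMtools 0.1.18, Bowtie 1.0.0 and CASAVA 1.8.2 come from the submitters' processing notes, which give no roles; the peak caller is not given in the sources used here, nor is its control. For each library the authors deposited a separate narrow-peak list, with a display score (not used), a fold enrichment (a ratio), and a p-value and a q-value, both as -log10. No deposited q-value was above 0.0498.

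Regions on chromosomes 1 to 22 and X were kept, which left out 80 and 82 rows for 5hmC and 14 and 15 for 5mC (high and normal glucose). Cover was the percent of a window or bin inside regions. Partners overlap by at least 1 bp. Whole numbers of fragments t and expected counts L were solved from the fold, (t + 1)/(L + 1), and the Poisson p-value of more than t, for 191314, 209999, 100218 and 91869 of the 191314, 209999, 100220 and 91870 regions kept (misfit under 1% of the step between whole numbers), a procedure checked on simulated data. Reads are background times genome size over the shortest peak. Python 3.11.15, NumPy 2.4.6, pandas 2.3.3, SciPy 1.17.1, networkx 3.6.1 and matplotlib 3.10.9 were used.

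The windows, bins and lists were chosen with earlier results of these data known. Named per window are the 3 highest and the lowest bin, the 3 strongest regions listed in high and the strongest listed in normal glucose only, the 2 largest gains in width and in scaled fragments, and the strongest 5mC region per glucose level. Alternatives changed the threshold, the list size, the background, merging, trimming, overlap, bin size and the scaling of fragments. The counts of pairs that differ in width by 500 bp or more were chosen after the data were seen. No test was run, since each group has 1 library. No sequence of these regions is given, because no hg19 sequence was used here.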

Additional observations from a re-analysis of the deposited data

How the results depend on the processing

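No paired analysis was possible because each mark and glucose level has 1 library. None of the pooled results or window differences changed sign under the alternatives, but shares crossed 50%: regions without a partner gave 48.0% of the net length with rows within 500 bp merged, and 46.4% of the pairs of window A were wider once trimmed. Over the whole lists several directions turned: 46.2% of pairs were wider when trimmed (57.0% before), 49.7% had more fragments in high glucose at matched background (67.7% before), and the ratio of 5hmC cover, high over normal, was 1.04 with regions of -log10 p of at least 10 (0.922 before). Widths are sensitive to the offset of the shortest peaks: with high-glucose regions trimmed by it, the pooled 5hmC cover difference was 0.926 instead of 1.33 percentage points, 54.8% of pairs were wider, and regions without a partner gave 67.2% of the net length. With only regions of -log10 p of at least 10, the 5hmC difference was 1.20 and the 5mC difference 0.135. High-glucose regions without a partner were then 33.9%, below the 35.3% of the whole list. In the main setting they were 26.6%, above the 24.1% of the list. Normal-glucose regions without a partner were then 15.8%, against 27.8%. Regions without a partner gave 71.6% of the net length, and the windows ranked 15, 19, 14, 30 and 71. Window D ranked 6 with -log10 q of at least 2. With equal numbers of top peaks windows B and E ranked 6 and 8, and with merged rows window E ranked 7. With equal numbers of top peaks the 5hmC difference was 1.53 (windows A to E: 1.68, 1.47, 1.62, 1.504 and 1.36), the part without a partner 62.4% and the 5mC difference 0.0723. With rows within 500 bp merged the 5hmC difference was 1.40 and the 5mC difference 0.0979. With overlap of 50% of both regions, 34.2% of high-glucose and 25.7% of normal-glucose regions had no partner, which gave 71.3% of the net length, and 0.817% of high-glucose regions met 5mC. Whole-list shares are not given at this overlap, so these values cannot be set against the lists. With matched background, or fragments scaled by background, 58.5% of pairs had more fragments in high glucose. The cause of these shifts was not tested beyond what each setting removes or trims. The count of bins with more 5hmC in high glucose lay between 76 and 86 of 100 under the 6 list settings. Over all bins with 5hmC the share under those settings ran from 43.9%, when trimmed, to 62.4%, with -log10 p of at least 10. The windows had 76 and 77 of 100 bins at those settings. In bins of 25 and 100 kb the windows had 71.5 and 94 per 100, for which no share over all bins is given here. Depth limits the 5mC lists most, whose weakest regions here rest on 6 or 7 fragments.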
